A study of Mus musculus with 2 samples.

Results

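De novo lipogenesis builds fatty acids from acetyl-CoA, and its enzymes and regulators were followed here in crypts of mouse small intestine that had lost Lpcat3. The set was 9 genes (Acly, Acss2, Acaca, Acacb, Fasn, Me1, Mlxipl, Thrsp and Pnpla3) of 18193 genes named on the array, taken by gene symbol from the array annotation, and they were read by 21 probe sets. Of the 9, 8 had a signal above the floor set for dim probe sets, and Thrsp did not.

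The knockout mice were Lpcat3 F/F, Villin-CreERT2, and the control mice were Lpcat3 F/F without Cre. Lpcat3 encodes an acyltransferase that places polyunsaturated fatty acids into membrane phospholipids, and Villin-CreERT2 is a tamoxifen-activated Cre recombinase whose promoter is active in the intestinal epithelium, so that other cells of the crypt preparation keep the gene. Mice of both genotypes carried the floxed alleles, were 8 to 10 weeks old and received 1 mg of tamoxifen per day by intraperitoneal injection on 5 days, with crypts isolated 2 weeks after that. Each genotype is represented by the pooled RNA of 5 mice on 1 Affymetrix array with 45101 probe sets. There is no replicate, no test of genotype and no p-value, and effects of the deletion, of Cre itself, of the pool or of the array cannot be told apart.

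All signals are MAS5 values in arbitrary units, and all ratios are log2 of the knockout signal over the control signal, so that a positive ratio means higher in the knockout pool. The floor was 92.9, the median of all values of both arrays. The error given with a ratio is the SD estimated from 4582 genes read by more than 1 probe set, which was 0.28 on the log2 scale (1.21-fold). It holds differences between probe sets and leaves out the spread between mice. Lpcat3 itself was lower in the pool labelled knockout, with a signal of 928 in the knockout pool and 4691 in the control pool, a log2 ratio of -2.34. Spiked hybridisation controls had a median log2 ratio of 0.027 over 18 probe sets. The 3' to 5' signal ratio, a sign of RNA integrity, was 1.64 in knockout and 1.98 in control for Actb, and 0.742 in knockout and 0.785 in control for Gapdh.

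In this pathway citrate leaves the mitochondrion and is cleaved to acetyl-CoA, acetyl-CoA carboxylase turns that into malonyl-CoA, and fatty acid synthase joins the units into palmitate with reducing power from NADPH. Transcription of the enzymes is driven in liver by SREBP-1c, which responds to insulin, and by ChREBP, the product of Mlxipl, which responds to sugar. SREBP activation also responds to membrane lipid in the endoplasmic reticulum. Lipogenesis supplies the saturated fatty acids that desaturases, elongases and acyltransferases then work on.

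The enzymes of the central steps were slightly higher in the knockout pool, Fasn and Acaca by more than the probe-set error and Acly by less, while Mlxipl and Pnpla3 were not higher. By their brightest probe sets, 6 of the 8 measured genes were higher, where 44.9% of all 11496 measured genes were, and 2 were lower. Their median log2 ratio was 0.17, beside a median of -0.042 over all measured genes. Of the 6 higher genes, only Fasn, Acaca and Me1 lay beyond 1 error SD, Me1 by 1 of its 2 probe sets. The probe sets of Acss2 went both ways. Me1 was the 1 gene at least 1.5-fold higher, where 4.76% of all measured genes were, and no gene of the set was at least 1.5-fold lower, where 8.74% of all measured genes were. With 8 genes these counts past 1.5-fold do not depart from those shares. Over probe sets, 13 of the 21 reached the floor in both pools, 10 of these were higher in the knockout pool, and 10 lay within 1 error SD of equality, where 58.0% of all named probe sets that reached the floor in both pools did. Among them 1 was at least 1.5-fold higher, where 5.16% of all measured named probe sets were, and 0 at least 1.5-fold lower, where 8.35% were. Of the 18008 named probe sets that reached the floor in both pools, 45.9% were higher in the knockout pool.

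**Figure D1:**
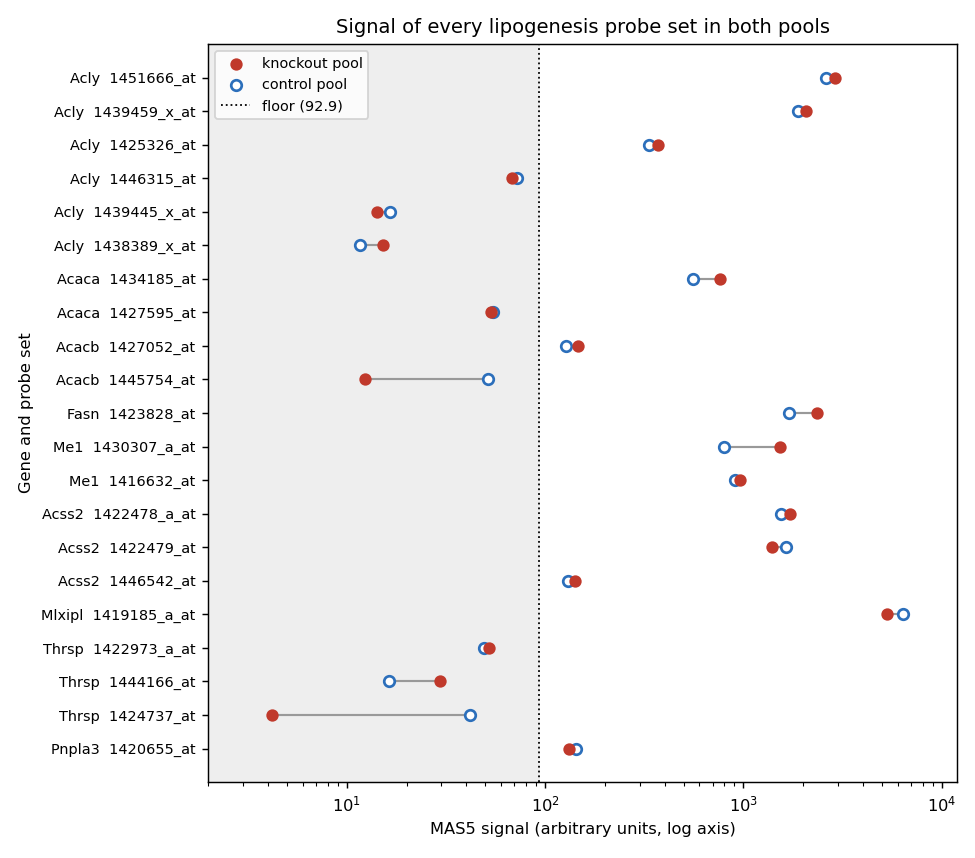
MAS5 signal (arbitrary units, log axis) of the 21 probe sets of the 9 genes, with filled points for the knockout pool, open points for the control pool and 1 array behind each point. The 8 probe sets in the grey area lie below the floor of 92.9 on both arrays, among them all 3 of Thrsp, and the widest gap above the floor is that of Me1 probe set 1430307_a_at (1527 in knockout, 801 in control).

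The first group makes cytosolic acetyl-CoA. Acly, ATP citrate lyase, cleaves citrate to acetyl-CoA. Its probe set 1451666_at had a signal of 2896 in the knockout pool and 2615 in the control pool. Probe set 1439459_x_at had 2073 in knockout and 1894 in control, and 1425326_at had 370 in knockout and 334 in control. All 3 were slightly higher in the knockout pool, with log2 ratios of 0.15, 0.13 and 0.14, each about 1.1 times the control signal and each within 1 error SD of 0. They differed from each other by at most 0.017, and 95.8% of the 4582 genes with several probe sets differed by at least as much between their 2 brightest. The other 3 Acly probe sets were below the floor on both arrays.

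Acss2 makes acetyl-CoA from acetate in the cytosol and nucleus, and its probe sets went both ways. Probe set 1422478_a_at had a signal of 1709 in the knockout pool and 1539 in the control pool (log2 ratio 0.15). Probe set 1422479_at, nearly as bright, had 1393 in knockout and 1649 in control (-0.24). The dimmest, 1446542_at, had 142 in knockout and 131 in control (0.11). Each lay within 1 error SD of 0, so no direction can be given for Acss2. A further probe set shared with the antisense gene Gssos2 was below the floor on both arrays, at 7.15 in knockout and 1.49 in control.

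The carboxylases come next. Acaca encodes the cytosolic acetyl-CoA carboxylase that makes malonyl-CoA for fatty acid synthesis. Its probe set 1434185_at had a signal of 760 in the knockout pool and 554 in the control pool, a log2 ratio of 0.46 ± 0.28 (1.37-fold), higher than the ratio of 91.9% of all measured genes. Its other probe set was below the floor, at 53.6 in knockout and 54.9 in control. Acacb encodes the carboxylase at the outer mitochondrial membrane, whose malonyl-CoA restrains fatty acid oxidation. It had 146 in knockout and 127 in control, a log2 ratio of 0.19, and with signals of 1.57 and 1.37 times the floor this value is less well measured than that of Acaca. The second Acacb probe set was below the floor on both arrays, at 12.3 in knockout and 51.8 in control, where values have no order.

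Fasn encodes fatty acid synthase, which makes palmitate. It was read by 1 probe set, 1423828_at, with a signal of 2356 in the knockout pool and 1691 in the control pool. The log2 ratio of 0.48 ± 0.28 (1.39-fold) lay 1.72 error SDs from 0 and above the ratio of 92.7% of all measured genes. Fasn and Acaca thus stood close together, with ratios that differed by less than 1 error SD. Their ratios were below the 1.5-fold line, and no second probe set above the floor was there to check either.

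The promoter of Fasn is shown because the gene had the highest ratio of the enzymes on the direct path to palmitate, beside those of Me1, the 1 gene past 1.5-fold, and Mlxipl, the lowest. The 250 bases before the start site are from RefSeq, build GRCm38.p6, and run 5′ to 3′ on the gene's strand. Capitals mark CCAAT and its reverse ATTGG (the NF-Y box), TCACCC (the core of the sterol response element, which SREBP binds), and CACGTG (an E-box, which USF proteins bind and which ChREBP binds in pairs).
Fasn, chr11:120824548-120824797, minus strand: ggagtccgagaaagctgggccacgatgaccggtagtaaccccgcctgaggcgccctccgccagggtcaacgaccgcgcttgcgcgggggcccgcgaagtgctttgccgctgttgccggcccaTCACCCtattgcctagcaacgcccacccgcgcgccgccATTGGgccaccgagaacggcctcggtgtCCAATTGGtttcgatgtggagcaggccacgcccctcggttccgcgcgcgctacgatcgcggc
Me1, chr9:86695915-86696164, minus strand: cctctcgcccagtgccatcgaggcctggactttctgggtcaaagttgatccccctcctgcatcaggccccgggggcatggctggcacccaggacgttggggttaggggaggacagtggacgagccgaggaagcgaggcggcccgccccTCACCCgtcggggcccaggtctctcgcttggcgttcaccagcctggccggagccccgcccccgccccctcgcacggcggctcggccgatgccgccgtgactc
Mlxipl, chr5:135089640-135089889, plus strand: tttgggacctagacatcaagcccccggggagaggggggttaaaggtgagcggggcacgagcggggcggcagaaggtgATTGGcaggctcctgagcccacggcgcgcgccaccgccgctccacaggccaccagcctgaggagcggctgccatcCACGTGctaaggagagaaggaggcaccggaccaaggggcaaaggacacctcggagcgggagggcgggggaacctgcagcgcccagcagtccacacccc

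In the Fasn window TCACCC began 128 bases before the start site, and NF-Y boxes began 90, 62 and 59 bases before it. The last of these, on opposite strands, overlap in the run CCAATTGG. The Me1 window held TCACCC 102 bases before the start and none of the other motifs. The Mlxipl window held an NF-Y box at 173 bases and CACGTG at 98 bases before the start. Me1 and Mlxipl have 2 windows each in the table, of which the more upstream is printed. All 9 genes were found, with 11 windows of 250 bases before and 50 after a start site. Both strands were searched over these. CCAAT was found in 8 of the 11 windows (37.4% of all 32851 windows), TCACCC in 4 (16.2% of all), and CACGTG in 1 (7.15% of all). Windows with TCACCC belonged to Fasn, Acss2, Me1 and Pnpla3, whose brightest probe sets had log2 ratios of 0.48, 0.15, 0.93 and -0.11. A match of letters is no evidence that a factor binds there.

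**Figure D2:**
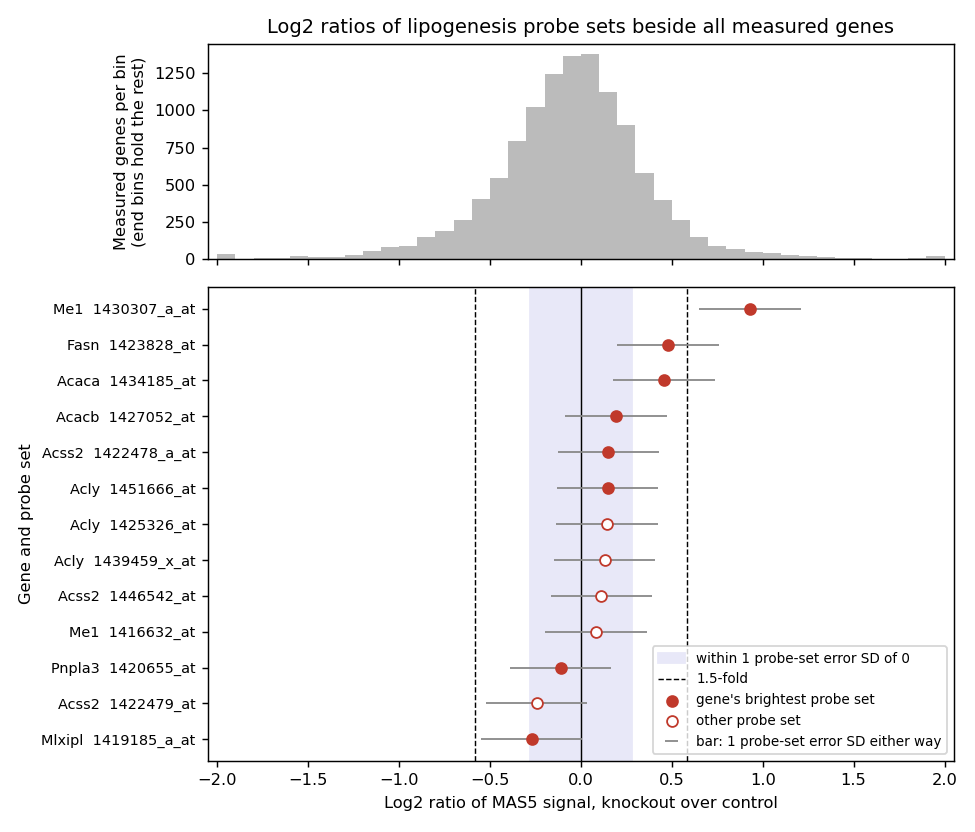
Upper panel, the log2 ratios (knockout over control) of all 11496 measured genes in bins of equal width. Lower panel, the 13 lipogenesis probe sets that reached the floor in both pools, with bars of 1 probe-set error SD (0.28) either way and dashed lines at 1.5-fold. From Me1 at 0.93 the values run down to Mlxipl at -0.27, and 10 of the 13 points lie inside the shaded band of 1 error SD around 0.

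NADPH for the synthase comes in part from Me1, cytosolic malic enzyme, which turns malate into pyruvate. Its 2 probe sets had like control signals and unlike ratios. Probe set 1430307_a_at had a signal of 1527 in the knockout pool and 801 in the control pool, a log2 ratio of 0.93 ± 0.28 (1.91-fold), above that of 98.3% of all measured genes. Probe set 1416632_at had 962 in knockout and 908 in control, a ratio of 0.083. They differed by 0.85 on the log2 scale, and 3.97% of the 4582 genes with several probe sets showed that difference or more between their 2 brightest. Me1 therefore counts as at least 1.5-fold higher by 1 probe set and not by the other. The mean over both was 0.51.

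**Figure D3:**
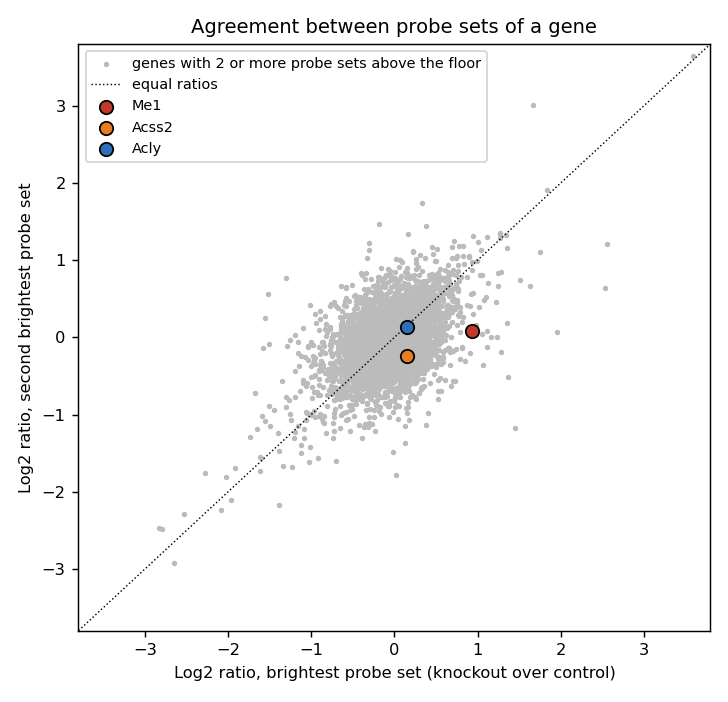
Log2 ratio (knockout over control) by the second brightest probe set against that by the brightest, for the 4582 genes with more than 1 probe set that reached the floor in both pools. Acly lies on the line of equal ratios, Acss2 below it, and Me1 far to the right of it (0.93 against 0.083).

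Neither Mlxipl nor Pnpla3 was higher in the knockout pool. Mlxipl, which encodes the sugar-responsive transcription factor ChREBP, had a signal of 5313 in the knockout pool and 6412 in the control pool, a log2 ratio of -0.27 (0.829 times the control signal), within 1 error SD of 0. Pnpla3 encodes a patatin-like lipid droplet protein that SREBP-1c and ChREBP induce in liver. It had 132 in knockout and 143 in control, a ratio of -0.11, at 1.42 and 1.54 times the floor. Thrsp, also called Spot 14, encodes a small protein that promotes lipogenesis in liver and fat. Its 3 probe sets were below the floor on both arrays, at 52.1, 29.5 and 4.18 in knockout and 49.3, 16.4 and 41.8 in control, so Thrsp was not measured and no ratio is given. Its relative Mid1ip1, whose protein helps acetyl-CoA carboxylase to polymerise, had 3417 in knockout and 2623 in control (0.38).

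Around the set, 9 lists of genes that feed, drive or follow lipogenesis held 136 genes, of which 10 had no probe set of their own, 9 were below the floor on both arrays and 117 were measured. In all, 8 of the 117 (6.84%) were at least 1.5-fold higher, where 4.76% of all measured genes were, and 9 (7.69%) at least 1.5-fold lower, where 8.74% were. The lists are described below by these counts and their medians, against a median of -0.042 over all measured genes, of which 44.9% were higher.

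Genes of desaturation and elongation held the highest ratios of these lists. Of 14 measured genes of fatty acid desaturation and elongation, 13 were higher in the knockout pool and 5 at least 1.5-fold, with a median of 0.27, beside 0.17 for the lipogenesis genes. Scd2, a stearoyl-CoA desaturase, had a signal of 10324 in knockout and 1761 in control (2.55), and its other probe sets above the floor on either array gave 0.038 to 1.21. Scd1 was at least 9.16-fold higher, with 851 in knockout and 87.2, below the floor, in control. Its dimmer probe set, also below the floor in control, gave a bound of only 0.71 on the log2 scale. Fads3 was at 1.18 and Elovl1 at 0.70. Elovl6, which extends palmitate to stearate, had 5331 in knockout and 2911 in control (0.87), and its other probe sets gave 0.78 and 0.97. Elovl5 was the lowest of the list at -0.27. Whether the desaturase and elongase genes differ from the 9 lipogenesis genes could not be tested with 1 array per group.

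On the supply side, 7 of 10 measured genes of a list around cytosolic NADPH supply were higher, with a median of 0.11. The list also holds pentose phosphate enzymes that make no NADPH themselves (Pgls, Tkt, Taldo1, Rpia and Rpe) and mitochondrial Me2. Its count and median are therefore not those of cytosolic NADPH-making enzymes alone. Pgd, a dehydrogenase of the pentose phosphate pathway, was the 1 gene at least 1.5-fold higher, at 14133 in knockout and 8361 in control (0.76), and its 3 other probe sets gave 0.63 to 0.90. Idh1, cytosolic isocitrate dehydrogenase, was at 0.57 with 0.48 by its second probe set. Me2, the mitochondrial malic enzyme, was the lowest at -0.24, and its 3 other probe sets were lower still, down to -0.95. G6pdx was not analysed here. Of 15 measured genes of mitochondrial citrate and pyruvate supply, 10 were higher, none by 1.5-fold, with a median of 0.14. Slc25a1, the carrier that exports citrate, was the highest at 2869 in knockout and 2018 in control (0.51). Pdk2 and Pdk4, kinases that switch off pyruvate dehydrogenase, were the 2 genes at least 1.5-fold lower, at -0.93 each, with signals of 135 and 162 in knockout and 258 and 308 in control.

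**Figure D4:**
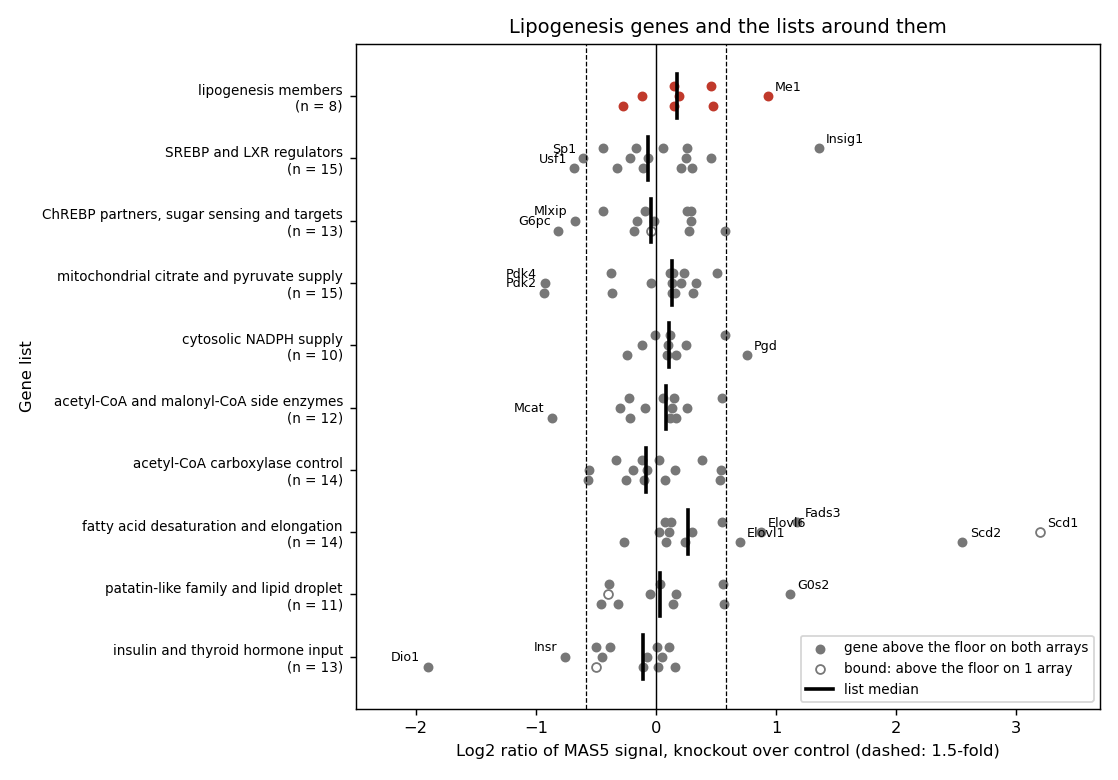
Log2 ratio (knockout over control) of each measured gene of the lipogenesis set (top row, red) and of 9 lists around it (grey), by the brightest probe set, with black bars for list medians, open points for bounds and names beside genes past 1.5-fold. The lipogenesis genes lie between -0.27 and 0.93, and Scd1 and Scd2 lie farthest to the right.

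Among the transcription factors above the pathway, Srebf1, which encodes SREBP-1, had a signal of 1738 in the knockout pool and 1457 in the control pool (0.25). Srebf2 was at 0.46, with 0.35 by its second probe set. Of the 15 measured genes of SREBP and LXR regulation, Insig1, which holds SREBP back in the endoplasmic reticulum and is itself an SREBP target, was the 1 gene at least 1.5-fold higher (6156 in knockout, 2403 in control, 1.36). Usf1 (-0.68, with -0.42 by its other probe set) and Sp1 (-0.61, with -0.20 and 0.11 by its other probe sets) were at least 1.5-fold lower, and the list median was -0.069.

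Partners and targets of ChREBP went both ways. The list had a median of -0.043 over 13 genes, none at least 1.5-fold higher. Mlx, its dimer partner, was at 0.27 (0.59 by another probe set), while Mlxip, which encodes the related sugar sensor MondoA, was lower at 1045 in knockout and 1666 in control (-0.67). Pklr, a pyruvate kinase and classical ChREBP target, was the highest at 0.57, although its other probe sets gave -0.44 and 0.15. G6pc, glucose-6-phosphatase and another target, was the lowest, at 343 in knockout and 603 in control (-0.82).

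In the remaining lists few genes passed 1.5-fold. All 14 genes of acetyl-CoA carboxylase control lay within 1.5-fold by their brightest probe sets (median -0.085), from Brca1 at -0.56 to Mid1 at 0.54. Other probe sets of Prkab1 (-0.89) and Prkag2 (-0.73), which encode subunits of the AMP-activated kinase and are named here after their values were seen, were at least 1.5-fold lower. Among 12 side enzymes of acetyl-CoA and malonyl-CoA (median 0.088), Mcat, the malonyltransferase of mitochondrial fatty acid synthesis, was at -0.87 and Aacs, which activates acetoacetate for lipid synthesis, was the highest at 0.55. Of 11 patatin-like and lipid droplet genes (median 0.037), G0s2, an inhibitor of the lipase made by Pnpla2, was at 1.12 (265 in knockout, 123 in control), and Abhd5, an activator of that lipase, was the lowest at -0.46, though 0.47 by its other probe set. Of 13 genes of insulin and thyroid hormone input (median -0.11), Insr, the insulin receptor, was at -0.76 (794 in knockout, 1345 in control), while its other probe set, at the edge of the floor in control and below it in knockout, gave a bound of -0.049. Dio1, which converts thyroxine to its active form, was at -1.90 (334 in knockout, 1246 in control), and Akt1 was the highest at 0.16, though -0.21 and -0.20 by its other probe sets.

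Marker genes of the cells in the preparation differed between the pools as well, and in such bulk RNA fewer cells of a type and less RNA per cell cannot be told apart. Of 10 T and natural killer cell markers 9 were measured and all 9 were lower by their brightest probe sets. Their summed signals were 8786 in knockout and 42822 in control. Other probe sets of Cd8a gave -1.80 to 0.33. Of 9 measured markers of crypt stem and dividing cells, 8 were lower (summed 52314 in knockout, 69015 in control). The lowest ratio among them was that of Lgr5 (171 in knockout, 814 in control, -2.25). Of 9 measured enterocyte markers, 6 were higher (summed 253165 in knockout, 220078 in control), among them Alpi at 0.62 and Mttp at 0.66, whereas Lct was at -1.36. All 6 measured B and plasma cell markers were higher by their brightest probe sets (5043 in knockout, 1440 in control, summed). Other probe sets of Ighm gave 0.030 to 1.32. Of 7 macrophage markers 5 were higher (4181 in knockout, 4176 in control, summed). Among these 5, Cd68, C1qa and C1qb were below the floor in control, so their ratios are bounds, and Adgre1 was at 0.073. All sums of markers use signals as read, also those below the floor. Csf1r had 700 in knockout and 121 in control (2.53, with 0.65 and 1.21 by its other probe sets), and Lyz2 had 2477 in knockout and 3225 in control. Of 9 stromal, muscle and vessel markers 3 were measured (404 in knockout, 334 in control, summed). Fat and liver cells make fatty acids at high rates. Of 10 adipocyte markers, Cidec (0.96) and Pparg (0.98) were measured (summed 1151 in knockout, 586 in control), Plin1 and Cfd had no probe set of their own, and Adipoq, Lep, Fabp4, Retn, Lpl and Cidea were below the floor on both arrays. Of 8 hepatocyte markers 4 were measured (Apoc3, Ttr, Apoh and Serpina1c). All 4 were lower by their brightest probe sets, though other probe sets of Ttr gave -0.50 to 0.28. Summed signals of the 4 were 8636 in knockout and 15091 in control. Most of that sum was Apoc3 (6450 in knockout, 12399 in control), and Alb, Ahsg, Fgb and Tat were below the floor on both arrays. With such markers below the floor, neither sum shows that fat or liver cells were present. The part of these cell markers in the lipogenesis ratios was not tested.

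The ratios kept their direction under the settings tried for scaling, floor and choice of probe sets, with the exception of Acss2. This was partly fixed in advance. Moving or leaving out the floor, or adding a pseudocount, cannot turn the sign of a gene's ratio. Acacb and Pnpla3 had 1 probe set above the floor, so only scaling could turn their sign. For Fasn, Acaca and Mlxipl the size of the ratio was partly fixed as well. Each had 1 probe set above the floor, brighter than every floor tried, so only scaling and the pseudocount could move its ratio. Over all 9 settings, the reported one included, Fasn lay between 0.46 and 0.48, Acaca between 0.40 and 0.52, Acly between 0.11 and 0.15, and the median of the set between 0.14 and 0.30. Mlxipl lay between -0.33 and -0.27 in the 8 settings that measured it. Me1 was 0.083 when probe sets ending in _s_at, _x_at or _a_at, which can bind several transcripts, were left out, and Acss2 was then at -0.24.

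**Figure D5:**
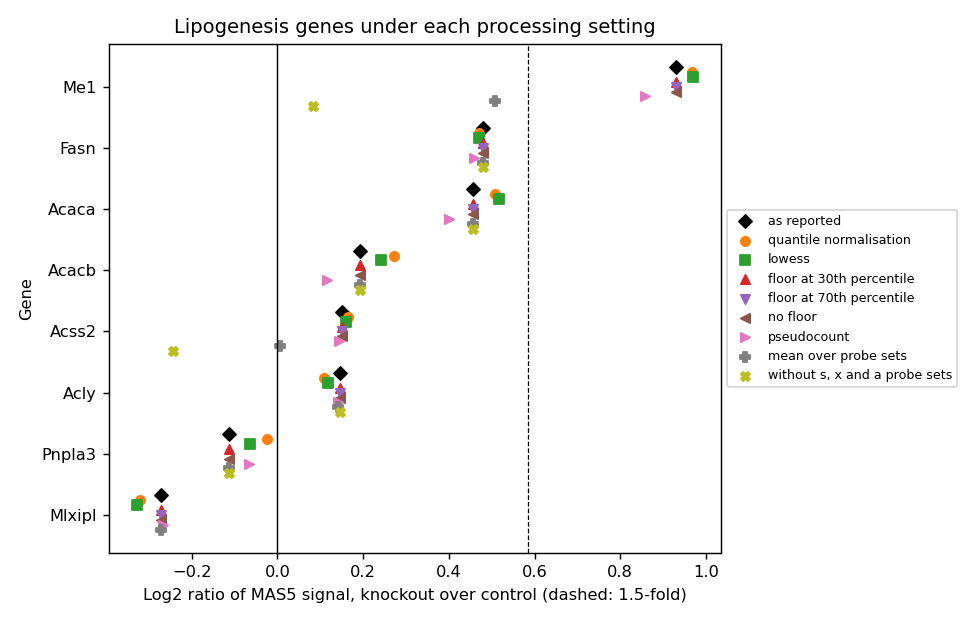
Log2 ratio (knockout over control) of the 8 measured genes under the reported setting and 8 alternatives, 1 symbol per setting. Fasn, Acaca and Acly keep tight clusters above 0 and Mlxipl below 0, while Me1 and Acss2 move with the choice of probe sets (Me1 between 0.083 and 0.97). Fasn, Acaca, Acacb, Mlxipl and Pnpla3 had no second probe set above the floor to choose.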

How the data were processed

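Total RNA of crypts, extracted with Trizol per the labels' protocols, was hybridised to 2 Affymetrix arrays, 1 per genotype. The authors deposited a linear intensity for each probe set, which MAS5 computed per the submitters' processing notes (version not given in the sources used here). Both columns had the same mean of 500.0 once 2% of values were trimmed at either end, as scaling to a common target gives, and no further scaling was applied. The design text names the smaller 430A array, whereas the table and its annotation hold the 45101 probe sets of the full one.

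Without the 64 control probe sets, 45037 remained. Of these 34945 had 1 gene symbol and were used to name genes, and the others, with several symbols or none, named none. Current symbols came from the RefSeq table of GRCm38.p6, matched by Entrez identifier, for 34741. No detection calls were used. The floor was the 50th percentile of all remaining values, lower values were raised to it, and a gene above it on 1 array only has a bound. The probe set with the highest mean log2 signal stands for its gene, and every member probe set is shown. Without replicates no test was made. Precision is limited by there being 2 arrays. The error SD is that of the difference between the 2 brightest probe sets of a gene divided by the square root of 2, and was 0.22 for the 2211 genes with both of these at or above the 75th percentile. The recovery of known gene ratios and of the error SD was tested on simulated arrays. These had the same error size for all probe sets, so an error that changes with signal was not covered. The lists, the motif search and the alternatives were not simulated. Python 3.11.15, pandas 2.3.3, numpy 2.4.6 and statsmodels 0.14.6 were used.

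The 9 members, 9 pathway lists and 8 marker lists were chosen with earlier results of these data known. Named genes are the members, Lpcat3, list genes past 1.5-fold, the highest and lowest of each list, a few regulators chosen with the lists, and markers. Alternatives were quantile and lowess scaling, floors at the 30th and 70th percentile, no floor, a pseudocount of 92.9, the mean over probe sets, and leaving out _s_at, _x_at and _a_at probe sets.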

Additional observations from a re-analysis of the deposited data

How the results depend on the processing

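No paired analysis was possible because there is 1 array per genotype, nor could an array be left out. Quantile and lowess scaling moved no lipogenesis gene, named gene or list median by as much as the error SD of 0.28 and no count by more than 1.5 times. They moved the share of higher genes among all genes past 1.5-fold to 43.3% and 42.2%, beside 35.2% as reported. The count of lipogenesis genes at least 1.5-fold higher, 1 as reported, was 0 with the mean over probe sets and 0 without _s_at, _x_at and _a_at probe sets, since it rests on 1 probe set of Me1. The background moved with the floor. All measured genes at least 1.5-fold higher numbered 547 as reported, 1234 with the floor at the 30th percentile, 308 at the 70th percentile and 2576 with no floor, and those at least 1.5-fold lower 1005, 1889, 432 and 3443. No value past 1.5-fold as reported changed sign. For a single gene only scaling and the choice of probe sets could have turned it, as the floor and the pseudocount cannot. With the floor at the 70th percentile (signal 318) Acacb and Pnpla3 were no longer measured, which left 6 of the lipogenesis genes, and without _s_at, _x_at and _a_at probe sets Mlxipl had none left. The list medians of SREBP and LXR regulators (-0.069 to 0.060), citrate and pyruvate supply (-0.065 to 0.15) and lipid droplet genes (-0.0072 to 0.14) crossed 0 between settings.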
